A study of Mus musculus with 2 samples.

Results

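The 42 genes described here encode machinery that holds, docks, fuses and retrieves synaptic vesicles: 15 synaptotagmins, 3 synapsins, 5 vesicle membrane proteins, 6 SNARE proteins, 4 SNARE regulators, 3 RAB3 GTPases, 5 active zone proteins and 1 clathrin adaptor. They were taken by gene symbol from a deposited table of 19720 genes, and all 42 were listed there. RNA was sequenced from brain tissue of H2AZcKO and H2AZfl/fl embryos. In H2AZcKO embryos H2afz, a gene for the histone H2A variant H2A.Z, is conditionally deleted. H2AZfl/fl embryos carry the unrecombined floxed alleles. Both genotypes are on the C57BL/6 strain. The source label reads telencephalic tissue, while cerebral cortex is what the protocol says was dissected. The title of the H2AZfl/fl sample calls it WT. Both titles carry E16 as the embryonic stage but the stage field of both reads E12, so the age is not settled. No Cre driver, floxed exon or pooling of animals was given in the sources used here. The study design mentions triplicates, but each genotype has 1 count column here, so every difference is between 1 H2AZcKO library and 1 H2AZfl/fl library, without replicates and without a test.

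In a nerve terminal, vesicles are held in a reserve by synapsins, guided to the release site by RAB3 and the active zone scaffold, and primed by MUNC13 proteins. Fusion is driven by SNARE proteins on the vesicle (VAMP) and on the plasma membrane (syntaxin and SNAP25), clamped by complexin and triggered by synaptotagmins that sense calcium. The complexes are then taken apart by NSF and its SNAP adaptors, and the membrane is retrieved through clathrin adaptors. In the embryonic forebrain most of these genes are switched on as neurons leave the progenitor state, before mature synapses form. The transcriptional repressor REST keeps several of them silent in progenitors and in cells outside the nervous system.

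The libraries held 9028523 reads in genes for H2AZcKO and 8474545 for H2AZfl/fl. Ratios are of H2AZcKO over H2AZfl/fl after TMM scaling, on the log2 scale, with 0.5 read added to each count. Each interval in brackets is an exact 95% Clopper-Pearson interval for how a gene's reads divide between the 2 libraries. It covers counting error only, not the variation between embryos or library preparations. A gene is called measured when both libraries together hold 20 or more of its reads, and apart at a ratio of at least 1.5 in either direction. The targeted gene, H2afz, had 535 reads in the H2AZcKO library and 1152 in the H2AZfl/fl library, a log2 ratio of -1.16 (interval -1.31 to -1.01). H2afv, the other H2A.Z gene, had 1095 reads in the H2AZcKO library and 1009 in the H2AZfl/fl library, at 0.06 (-0.06 to 0.19). All 20 listed cortical projection neuron markers were measured, with summed levels of 6332 TMM-scaled CPM in H2AZcKO and 6362 in H2AZfl/fl.

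Promoter windows are shown for Syt6, Syt2 and Syn1, the only 3 members with a match to the RE1 core described below. Sv2c and Rims1 are shown from the 25 members with a GC box. The 5 windows therefore do not stand for the members as a whole or for those that differ most. Each runs from 250 bases before to 50 bases after a transcription start, 5′ to 3′ on the gene's strand, from RefSeq on GRCm38.p6. Of the 42 members, 31 had at least 1 window in that set, 42 windows in all. Syt13, Rims2, Syn3, Vamp2, Vamp3, Snap25, Syt4, Syt5, Syt7, Syt12 and Syt17 had none. In the first 3 sequences, capitals mark a match to the core of the RE1 element bound by REST, on either strand with up to 2 mismatches. In Sv2c and Rims1, capitals mark GGGCGG, the GC box, on either strand. The windows of Syt6 and Syt2 also hold GC boxes, which are left in lower case.
Syt6 (chr3:103575876-103576175, plus strand): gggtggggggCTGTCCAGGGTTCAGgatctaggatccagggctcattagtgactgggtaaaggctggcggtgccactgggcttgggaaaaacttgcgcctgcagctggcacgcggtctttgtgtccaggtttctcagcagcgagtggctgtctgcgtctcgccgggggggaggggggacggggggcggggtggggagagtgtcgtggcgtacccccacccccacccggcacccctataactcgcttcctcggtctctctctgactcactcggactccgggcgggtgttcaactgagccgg
Syt2 (chr1:134646362-134646661, plus strand): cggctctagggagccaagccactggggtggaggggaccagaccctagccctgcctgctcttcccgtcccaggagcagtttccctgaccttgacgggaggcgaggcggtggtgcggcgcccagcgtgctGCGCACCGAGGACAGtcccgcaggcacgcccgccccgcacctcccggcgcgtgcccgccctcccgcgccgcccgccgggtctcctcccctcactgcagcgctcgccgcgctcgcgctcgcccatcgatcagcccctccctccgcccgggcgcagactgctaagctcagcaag
Syn1 (chrX:20920869-20921168, minus strand): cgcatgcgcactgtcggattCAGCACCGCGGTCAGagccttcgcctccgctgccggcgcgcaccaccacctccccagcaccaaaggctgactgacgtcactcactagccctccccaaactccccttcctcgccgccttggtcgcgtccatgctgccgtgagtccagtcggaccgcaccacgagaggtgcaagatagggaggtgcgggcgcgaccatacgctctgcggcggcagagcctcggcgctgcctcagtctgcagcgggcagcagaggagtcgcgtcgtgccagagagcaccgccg
Sv2c (chr13:96132528-96132827, minus strand): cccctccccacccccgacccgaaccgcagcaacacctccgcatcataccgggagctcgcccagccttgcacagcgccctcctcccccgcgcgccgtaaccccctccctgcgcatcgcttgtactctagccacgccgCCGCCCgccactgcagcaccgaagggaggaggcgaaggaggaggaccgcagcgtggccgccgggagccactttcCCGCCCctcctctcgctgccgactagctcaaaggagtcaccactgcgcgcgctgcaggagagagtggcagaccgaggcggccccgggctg
Rims1 (chr1:22806109-22806408, minus strand): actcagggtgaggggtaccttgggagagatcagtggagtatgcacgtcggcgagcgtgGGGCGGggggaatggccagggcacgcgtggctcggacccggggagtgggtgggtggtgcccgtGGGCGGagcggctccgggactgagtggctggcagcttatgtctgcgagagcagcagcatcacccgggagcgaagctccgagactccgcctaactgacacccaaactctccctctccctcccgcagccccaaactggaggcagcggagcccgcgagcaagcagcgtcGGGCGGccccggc
The RE1 core with up to 2 mismatches was found in 3 of the 42 member windows, those of Syn1 with 1 mismatch and of Syt2 and Syt6 with 2, and in 1.92% of all 32851 windows in the set. The GC box was found without mismatch in 29 of the 42 member windows and in 35.7% of all windows. The neuronal E-box CAGCTG was found in 14 of the 42 and in 16.3% of all windows. In the 5 windows shown, the capitals do not overlap a match to another of these 3 motifs. These are letter matches, not measured binding sites.

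The vesicle and SNARE genes as a group were close to level between the libraries, with a small tilt toward H2AZcKO and 1 gene far from the rest. Of the 40 measured members, 3 stood 1.5-fold or more above H2AZfl/fl in the H2AZcKO library (Syt13, Syt2 and Sv2c) and 0 stood that far below. Among all 14366 measured genes, 3.52% were that much higher and 5.43% that much lower. The median log2 ratio of the members was 0.14, against 0.0018 over all measured genes, and 29 of the 40 were above 0, against 50.4% of all measured genes. Syt10 and Syt12 fell below the read minimum.

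Smaller differences beyond counting error were frequent among the members. The interval excluded a ratio of 1 on the higher side for 19 of 40 members and on the lower side for 1, Vamp3; over all measured genes these shares were 12.5% and 9.3%. Among genes with at least 1000 reads, where intervals are narrow, 11 of 21 members were higher beyond counting error and 0 lower, against 24.5% and 7.68% of all such genes. The authors' deposited table marks Syt13 alone among the members as significant, where 0.441% of all listed genes are marked as higher in H2AZcKO and 1.17% as lower. None of the 318 marked genes has an absolute log2 fold under 1.003, so the mark does not rest on the adjusted p alone. An adjusted p under 0.05 stands in the authors' deposited table for 6 members higher in H2AZcKO (Syt13, Rab3c, Syt1, Syt6, Rims2 and Rims1) and 0 lower, where 3.36% of all listed genes are higher and 4.07% lower by that limit. What test produced them is not stated there.

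**Figure D1:**
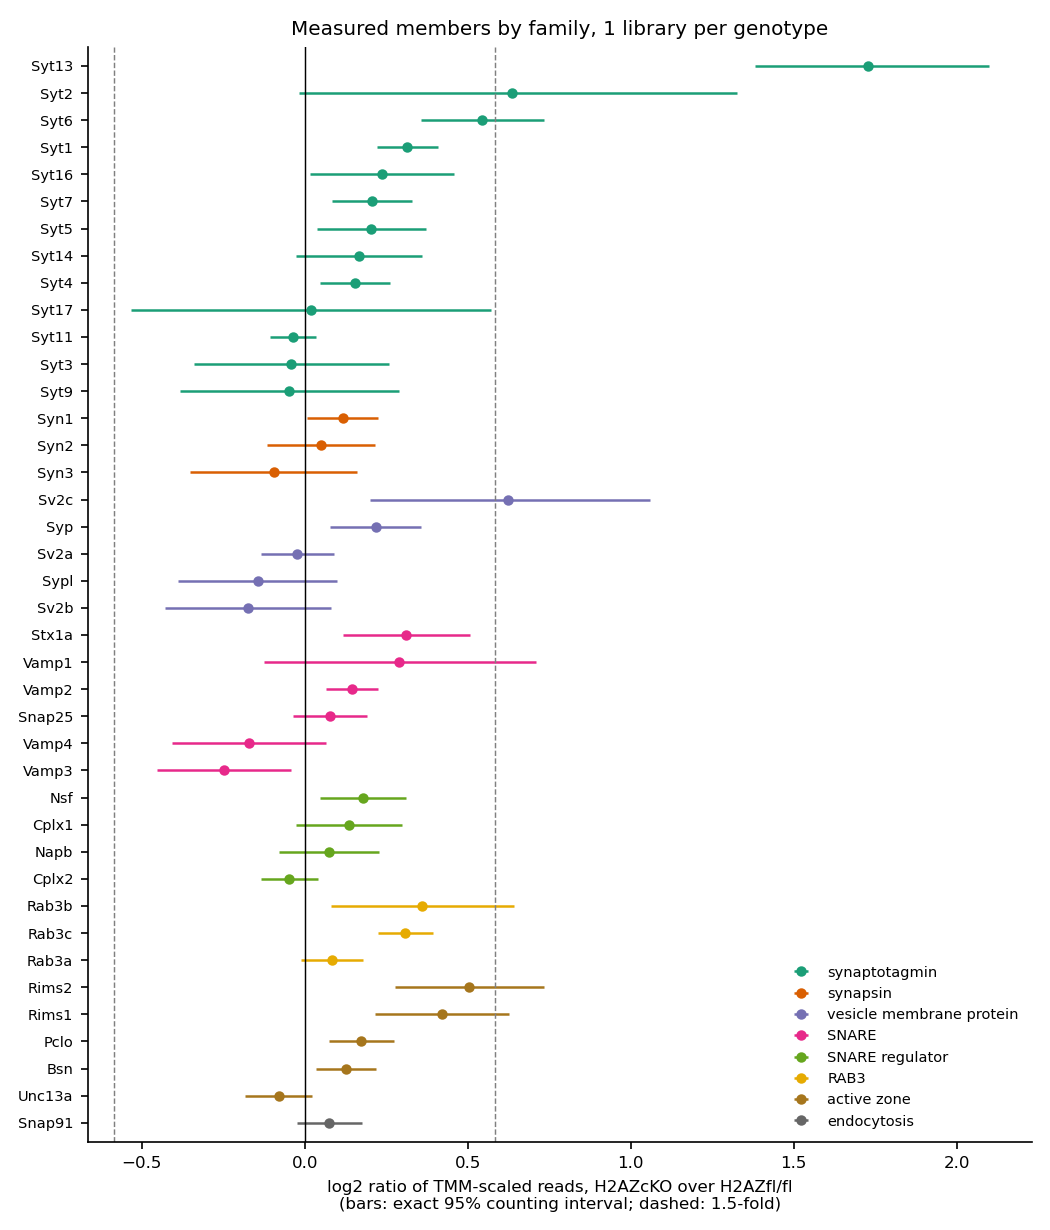
Log2 ratio of TMM-scaled reads, H2AZcKO over H2AZfl/fl, for the 40 measured members grouped by family (points; bars are exact 95% counting intervals; dashed lines mark 1.5-fold). Syt13 lies at 1.73, and the other 39 lie between -0.25 and 0.64.

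Genes expressed across neurons were compared beside the members. On a list of 20 pan-neuronal genes, 18 were above 0 and the median log2 ratio was 0.19. By their intervals 18 were higher beyond counting error and 0 lower, against 12.5% and 9.3% of all measured genes. Nefl, the light neurofilament gene, was the furthest from 0, with 379 reads in the H2AZcKO library and 168 in the H2AZfl/fl library, a log2 ratio of 1.11 (0.85 to 1.39). When the libraries were scaled to the summed reads of this list in place of TMM, all log2 ratios moved by -0.18. The median of the members was then -0.042, 7 of 40 members were higher beyond counting error and 11 lower, against 2.65% and 38.1% of all measured genes by the same scaling. The 7 that were higher were Syt13, Syt6, Syt1, Sv2c, Rab3c, Rims1 and Rims2. The 11 that were lower were Syt11, Syn3, Sypl, Sv2a, Sv2b, Vamp3, Vamp4, Cplx2, Rab3a, Unc13a and Snap91. Syt4, Syn1, Vamp2, Nsf, Bsn and Pclo, higher beyond counting error under TMM, had log2 ratios below 0 by that scaling. In bulk tissue, fewer cells of a type and less RNA per cell cannot be told apart. Together the members took 0.427% of the H2AZcKO reads (0.423 to 0.431) and 0.401% of the H2AZfl/fl reads (0.397 to 0.405).

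**Figure D2:**
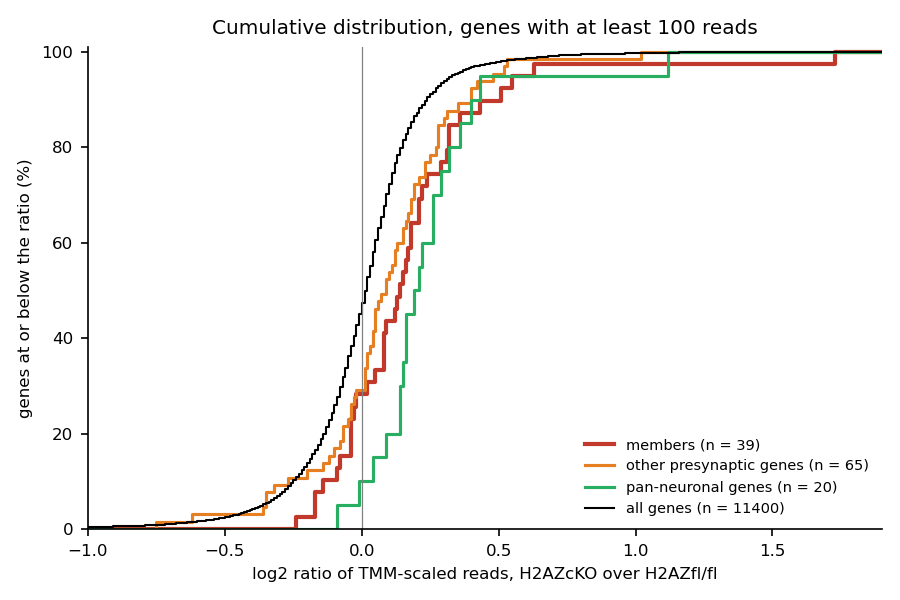
Cumulative share of genes (y axis, percent) at or below each log2 ratio of H2AZcKO over H2AZfl/fl (x axis), for genes with 100 or more reads over both libraries. The curve of the 39 members (median 0.13) runs to the right of that of all 11400 genes (0.01), and up to a log2 ratio of 0.3 to the left of that of the 20 pan-neuronal genes (0.19); 65 other presynaptic genes have a median of 0.08.

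The order of the members by level was similar in both libraries. Per kilobase of exon, Rab3a was the highest, with 92.7 TMM-scaled CPM in the H2AZcKO library and 87.5 in the H2AZfl/fl library. Vamp2 followed with 80.6 and 73.0, and Syt11 with 68.6 and 70.3. These 3 held the first 3 places in both libraries. Syt2 was the lowest measured member, with 0.763 and 0.488. Syn1 and Cplx2, next to each other at 49.1 and 49.0 in the H2AZcKO library, exchanged places in the H2AZfl/fl library at 45.3 and 50.6. The largest move in the order was that of Syt13, in place 25 of 40 in the H2AZcKO library and in place 35 in the H2AZfl/fl library.

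**Figure D3:**
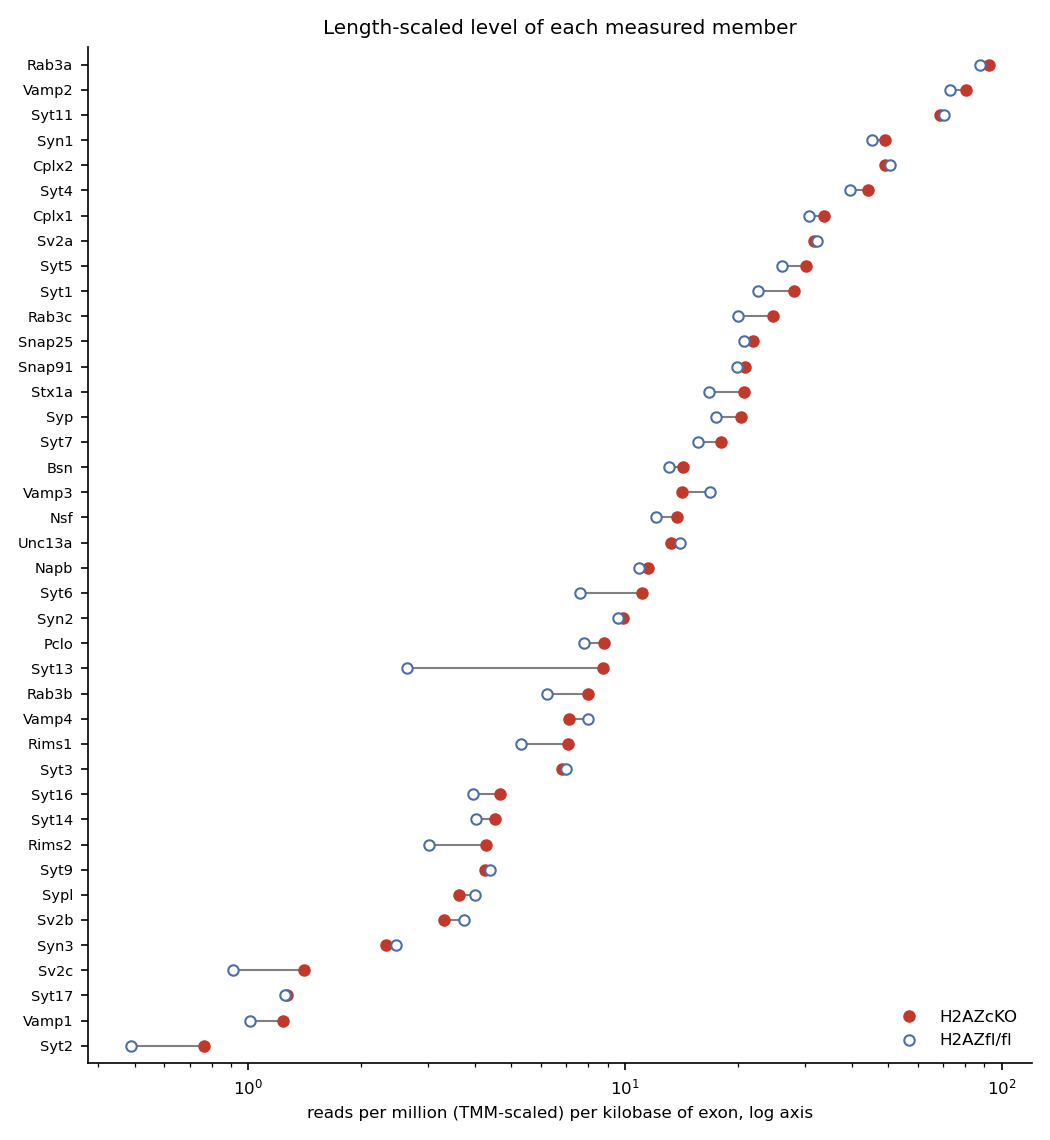
Level of each measured member as TMM-scaled CPM per kilobase of exon (log axis) in the H2AZcKO library (filled) and the H2AZfl/fl library (open), ordered by the H2AZcKO level. The pairs nearly coincide for most genes, and Syt13 stands apart at 8.76 in H2AZcKO and 2.63 in H2AZfl/fl.

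The synaptotagmins included the gene furthest apart. Syt13 encodes an atypical synaptotagmin whose C2 domains lack the residues that coordinate calcium. The gene lies on chromosome 2 from 92915098 to 92956058, plus strand. It had 294 reads in the H2AZcKO library and 85 in the H2AZfl/fl library. That is 3.31-fold higher in H2AZcKO (2.60 to 4.29), a log2 ratio of 1.73 (1.38 to 2.10), and the 3rd highest ratio of the 11400 genes with at least 100 reads. The authors' deposited table gives Syt13 a fold of 0.308 for control over knockout, with an adjusted p of 5.27e-23. Its exons share no bases with another annotated gene.

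Of the 8 synaptotagmins classed here as calcium sensors, 7 were measured and 4 (Syt1, Syt5, Syt6 and Syt7) were higher beyond counting error, 0 lower, against the 12.5% and 9.3% of all measured genes given above. Scaled to pan-neuronal reads, Syt1 and Syt6 were higher beyond counting error and Syt5 and Syt7 were not. Syt1, the sensor for fast synchronous release in forebrain neurons, had 2091 reads in the H2AZcKO library and 1616 in the H2AZfl/fl library, a log2 ratio of 0.32 (0.22 to 0.41). Syt2, its counterpart in hindbrain and other fast synapses, had 52 and 32 reads in the H2AZcKO and H2AZfl/fl libraries. Its ratio passed 1.5-fold at 0.64, but the interval (-0.02 to 1.33) included level. Syt6, a member of the disulfide-linked group, had 578 reads in the H2AZcKO library and 381 in the H2AZfl/fl library, a log2 ratio of 0.54 (0.36 to 0.74), just under 1.5-fold. It shares 8.67% of its exon bases with an opposite-strand pseudogene, Atg4a-ps, and the strand setting of the counts is not given. Syt7, the slow high-affinity sensor of asynchronous release and facilitation, and Syt5, a calcium-binding synaptotagmin, were both near 0.20: Syt7 had 1203 and 1003 reads in the H2AZcKO and H2AZfl/fl libraries, and Syt5 had 641 and 535. Syt7 shares 5.13% of its exon bases with the opposite-strand gene Gm26859. Syt3 and Syt9 were level, with 189 and 187 reads of Syt3 and 151 and 150 of Syt9 in the H2AZcKO and H2AZfl/fl libraries. Syt10, a sensor known from olfactory bulb neurons, had 6 reads in the H2AZcKO library and 5 in the H2AZfl/fl library, too few for a ratio.

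The other 7 synaptotagmins do not act as standard calcium sensors, and apart from Syt13 they stayed within 1.5-fold. Syt11, the highest synaptotagmin per kilobase, had 3185 reads in the H2AZcKO library and 3140 in the H2AZfl/fl library, a log2 ratio of -0.04 (-0.11 to 0.04). Its close relative Syt4, which traffics on dense-core vesicles, had 1535 and 1326 reads in the H2AZcKO and H2AZfl/fl libraries, a log2 ratio of 0.15 (0.05 to 0.26), and shares 14.5% of its exon bases with the opposite-strand gene Gm26658. Syt16 was at 0.24 (0.02 to 0.46), Syt14 at 0.17 (-0.03 to 0.36), and Syt17, which lacks a transmembrane segment, at 0.02 (-0.53 to 0.57). Syt12 had 7 reads in the H2AZcKO library and 5 in the H2AZfl/fl library.

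Shares of reads within a family do not depend on scaling between libraries. Syt13 made up 2.71% of all synaptotagmin reads in the H2AZcKO library (2.41 to 3.03) and 0.920% in the H2AZfl/fl library (0.735 to 1.14). The share of Syt11 was 29.3% in H2AZcKO (28.5 to 30.2) and 34.0% in H2AZfl/fl (33.0 to 34.9). Syt1 held 19.3% and 17.5% and Syt6 held 5.33% and 4.12% in the H2AZcKO and H2AZfl/fl libraries. For these 4 of 15 synaptotagmins the 2 binomial intervals did not overlap, as for 12 of 41 members over all families with more than 1 gene; this share was not computed for families outside the members. The summed reads of the family had a log2 ratio of 0.18 (0.13 to 0.22), of 0.15 (0.11 to 0.19) without Syt13, and of -0.0064 when scaled to pan-neuronal reads.

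**Figure D4:**
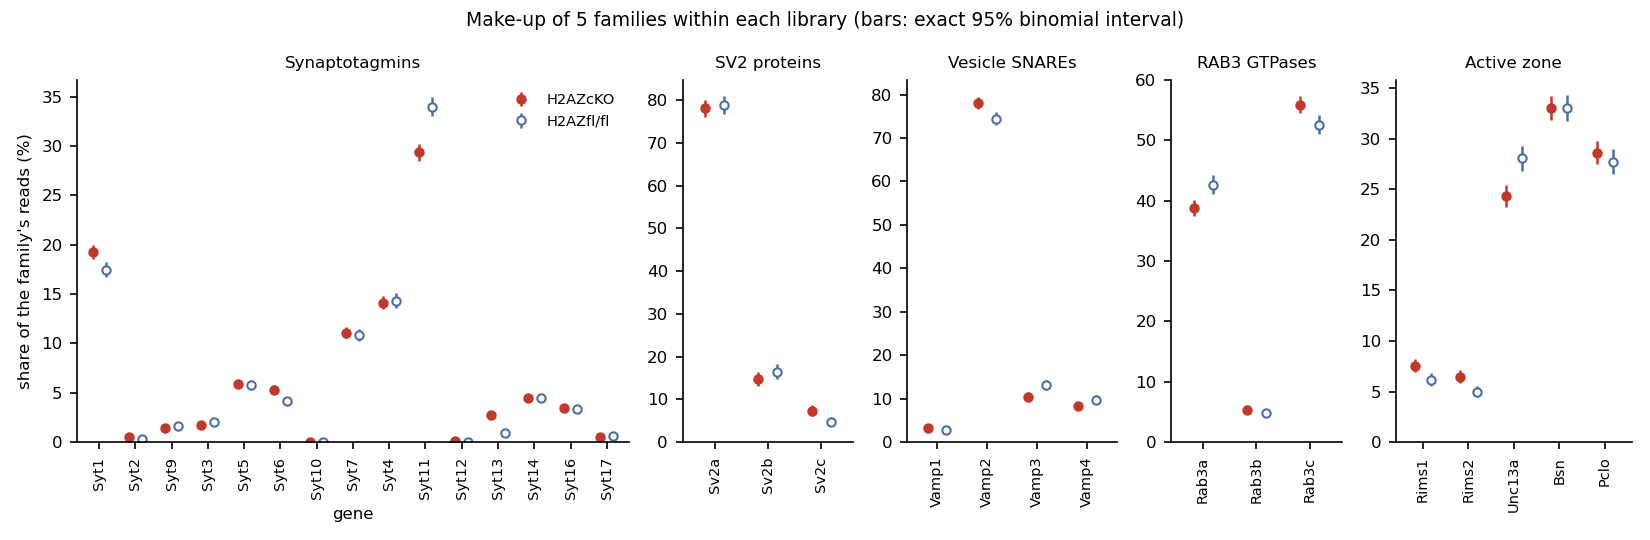
Share of a family's reads (y axis, percent) held by each gene in the H2AZcKO library (filled, left of each pair) and the H2AZfl/fl library (open, right), for 5 families; bars are exact 95% binomial intervals. Within the synaptotagmins, Syt11 is lower and Syt1, Syt6 and Syt13 are higher in H2AZcKO. Elsewhere Sv2c, Vamp2, Rab3c, Rims1 and Rims2 hold more, and Vamp3, Rab3a and Unc13a less, beyond counting error. The share of genes apart in this way was not computed for families outside the members.

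Synapsins, which tether vesicles in the reserve pool, had a summed log2 ratio of 0.07 (-0.01 to 0.16), or -0.11 scaled to pan-neuronal reads. Syn1, with an RE1-like stretch in the window shown above, had 1444 reads in the H2AZcKO library and 1281 in the H2AZfl/fl library, a log2 ratio of 0.12 (0.01 to 0.23). Syn2 was at 0.05 (-0.12 to 0.22) and Syn3 at -0.10 (-0.35 to 0.16). Syn3 shares 14.1% of its exon bases with Timp3, which lies within it on the opposite strand. The share of each synapsin in the family's reads overlapped between the libraries, with Syn1 at 62.3% in H2AZcKO and 60.5% in H2AZfl/fl.

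Among the vesicle membrane proteins, the low-level member Sv2c differed from its paralogs, while the summed log2 ratio of the 5 genes was 0.05 (-0.03 to 0.12), or -0.13 scaled to pan-neuronal reads. Sv2c, the SV2 isoform known from the basal ganglia, had 122 reads in the H2AZcKO library and 76 in the H2AZfl/fl library. Its log2 ratio was 0.62 (0.20 to 1.06), or 1.54-fold higher. Sv2a, the broadly expressed isoform, had 1318 and 1288 reads in the H2AZcKO and H2AZfl/fl libraries, and Sv2b, a forebrain isoform, had 248 and 269. Their log2 ratios of -0.02 (-0.14 to 0.09) and -0.17 (-0.43 to 0.08) were not separable from level. Sv2c held 7.23% of SV2 reads in H2AZcKO (6.04 to 8.57) and 4.65% in H2AZfl/fl (3.68 to 5.79). Syp, the classical vesicle marker synaptophysin, had 943 reads in the H2AZcKO library and 780 in the H2AZfl/fl library, a log2 ratio of 0.22 (0.08 to 0.36). It shares 16.8% of its exon bases with the opposite-strand gene Gm14703. Sypl, a broadly expressed relative, had 270 and 287 reads in the H2AZcKO and H2AZfl/fl libraries, at -0.14 (-0.39 to 0.10).

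The summed log2 ratio of the SNARE genes was 0.10 (0.04 to 0.15), or -0.086 scaled to pan-neuronal reads, and Vamp3 and Vamp4, which serve general trafficking, were the members with negative ratios under TMM. Vamp2, the principal vesicle SNARE of the forebrain, had 2740 reads in the H2AZcKO library and 2385 in the H2AZfl/fl library, a log2 ratio of 0.14 (0.06 to 0.22). Vamp1, its paralog of spinal cord and brainstem, was at 0.29 (-0.12 to 0.71). Vamp3, the endosomal cellubrevin found in most cell types, had 366 reads in the H2AZcKO library and 418 in the H2AZfl/fl library, and at -0.25 (-0.45 to -0.04) was the lowest member. Vamp4, of the trans-Golgi network, was at -0.17 (-0.41 to 0.06). Vamp2 took 78.1% of VAMP reads in H2AZcKO (76.7 to 79.5) and 74.4% in H2AZfl/fl (72.9 to 75.9), while Vamp3 took 10.4% (9.44 to 11.5) and 13.0% (11.9 to 14.3). On the target membrane, Stx1a had 493 reads in the H2AZcKO library and 382 in the H2AZfl/fl library, a log2 ratio of 0.31 (0.12 to 0.51). Snap25 was at 0.08 (-0.04 to 0.19).

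Regulators of the SNARE cycle had a summed log2 ratio of 0.05 (-0.01 to 0.11), or -0.14 scaled to pan-neuronal reads. Cplx2 and Cplx1, the complexins that clamp and assist fusion, were at -0.05 (-0.13 to 0.04) and 0.13 (-0.03 to 0.30). Nsf, the ATPase that separates spent SNARE complexes, had 1022 reads in the H2AZcKO library and 868 in the H2AZfl/fl library, a log2 ratio of 0.18 (0.05 to 0.31), and Napb, its neuronal adaptor, was at 0.07 (-0.08 to 0.23). Snap91, or AP180, which sets the size of clathrin-coated vesicles, had 1698 and 1550 reads in the H2AZcKO and H2AZfl/fl libraries, at 0.08 (-0.03 to 0.18).

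The 3 RAB3 members are small GTPases of the vesicle surface. Their reads summed to 4744 in the H2AZcKO library and 3918 in the H2AZfl/fl library, a log2 ratio of 0.22 (0.16 to 0.28), or 0.038 scaled to pan-neuronal reads. Rab3c, which carried most of this, had 2653 reads in H2AZcKO and 2060 in H2AZfl/fl, at 0.31 (0.22 to 0.39). Rab3a, the main isoform per kilobase, had 1840 and 1670 reads in the H2AZcKO and H2AZfl/fl libraries and was at 0.08 (-0.01 to 0.18). Rab3b, with 251 and 188 reads, was at 0.36 (0.08 to 0.64), and shares 9.0% of its exon bases with the opposite-strand gene 8030443G20Rik. Rab3c held 55.9% of the reads of these 3 genes in H2AZcKO (54.5 to 57.3) and 52.6% in H2AZfl/fl (51.0 to 54.2). Rab3d, which is not among the members, had 364 reads in the H2AZcKO library and 423 in the H2AZfl/fl library. With it included, the summed log2 ratio was 0.18 (0.12 to 0.24), Rab3c held 51.9% in H2AZcKO (50.6 to 53.3) and 47.5% in H2AZfl/fl (46.0 to 49.0), and the intervals of Rab3a overlapped.

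At the active zone the RIM genes were higher in H2AZcKO, also when scaled to pan-neuronal reads, and the summed log2 ratio of the 5 genes was 0.13 (0.07 to 0.18), or -0.054 by that scaling. Rims1 had 465 reads in the H2AZcKO library and 334 in the H2AZfl/fl library, a log2 ratio of 0.42 (0.21 to 0.63). Rims2 had 397 and 269 reads in the H2AZcKO and H2AZfl/fl libraries, at 0.50 (0.28 to 0.73). RIM proteins link RAB3 on the vesicle to calcium channels at the release site. Unc13a, the priming factor MUNC13-1, had 1492 reads in the H2AZcKO library and 1517 in the H2AZfl/fl library, at -0.08 (-0.18 to 0.02). The giant scaffolds Bsn (bassoon) and Pclo (piccolo) were at 0.13 (0.03 to 0.22) and 0.17 (0.07 to 0.27). Within the 5 genes, Rims1 held 7.57% in H2AZcKO and 6.18% in H2AZfl/fl, Rims2 6.46% and 4.98%, and Unc13a 24.3% and 28.1%, each with intervals that did not overlap. How often such intervals are apart in families outside the members was not computed.

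Gene size was looked at because several of the higher members are long. Of the 15 measured members that span more than 100 kb, 12 (80%) were above 0 and the median log2 ratio was 0.18. Of the 25 shorter members, 17 (68%) were above 0 and the median was 0.12. Over all measured genes, 62.6% of 2158 genes above 100 kb were above 0 with a median of 0.055, and 48.2% of 12163 shorter ones with a median of -0.0084. Across the 40 members Spearman's rho between span and ratio was 0.30, and across 14321 genes it was 0.11. These describe genes that share the same 2 libraries and are not independent.

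Other presynaptic genes, from a list of 76 of which 72 were in the table, were read beside the members. Of 68 measured, 2 stood 1.5-fold or more higher in H2AZcKO (Slc18a2 and Doc2a) and 4 lower (Vamp8, Vamp5, Stxbp2 and Syngr2). Among all measured genes these shares were 3.52% and 5.43%. The intervals of Doc2a (-0.006 to 1.64) and Vamp5 (-2.95 to 0.19) included level. The median log2 ratio of the 68 was 0.07, or -0.11 scaled to pan-neuronal reads. Beyond counting error 23 were higher and 7 lower, against 12.5% and 9.3% of all measured genes. The transmitter transporters differed among themselves. Slc18a2, which loads monoamines into vesicles, had 280 reads in the H2AZcKO library and 133 in the H2AZfl/fl library, 2.02-fold higher (1.64 to 2.51). Slc32a1, the vesicular GABA transporter gene, had 365 and 244 reads in the H2AZcKO and H2AZfl/fl libraries, a log2 ratio of 0.52 (0.29 to 0.76). Slc17a7, a vesicular glutamate transporter gene of the cortex, had 499 and 555, at -0.21 (-0.39 to -0.03), and Slc17a6, its subcortical counterpart, was at 0.01 (-0.14 to 0.17).

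Among the other presynaptic genes with at least 100 reads, the next highest after these transporters had several roles. Rims3, a short RIM, was at 0.52 (0.34 to 0.70), Rph3a, the RAB3 effector rabphilin, at 0.47 (0.32 to 0.63), Dnm3, a dynamin, at 0.41 (0.28 to 0.55), and Doc2b, a calcium-binding C2 domain protein, at 0.40 (0.10 to 0.70). The lowest was Stxbp2, a SNARE partner used mainly outside neurons, with 178 reads in the H2AZcKO library and 289 in the H2AZfl/fl library, at -0.75 (-1.03 to -0.48). Stx4a, a plasma membrane syntaxin of many tissues, was at -0.35 (-0.71 to -0.0002), Rab3il1, a RAB exchange factor, at -0.35 (-0.79 to 0.08) and Rab3d, the RAB3 of secretory cells, at -0.27 (-0.48 to -0.07).

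Markers of brain regions and of other tissues also differed between the libraries, and their part in the values above was not tested. On a ventral forebrain and GABAergic list, 12 of 30 measured genes were apart on the higher side in H2AZcKO and 0 on the lower, against 3.52% and 5.43% of all measured genes. The summed level of this list was 2448 CPM in H2AZcKO and 1809 in H2AZfl/fl. Its furthest members were Isl1 at 1.65, Dlx6 at 1.58 and Rxrg at 1.52 on the log2 scale. On a diencephalic, midbrain and hindbrain list, 10 of 17 were higher, 2 lower and 5 not apart. The 2 lower, Otx2 and Lmx1a, are also counted on the choroid plexus list. The summed level was 263 CPM in H2AZcKO and 122 in H2AZfl/fl, of which Tcf7l2, a gene of the thalamus, held 114 and 12.9. Tcf7l2 had 1017 reads in H2AZcKO and 111 in H2AZfl/fl, and Shox2 had 85 and 0. Cortical projection neuron markers had 0 of 20 apart in either direction, and Neurod1, at -0.31, and Tle4, at 0.28, were the furthest. Neural progenitor markers also had 0 of 20 apart, with summed levels of 3718 in H2AZcKO and 3840 in H2AZfl/fl. Beyond counting error, 6 of the 20 cortical projection neuron markers were higher and 6 lower. For the 20 progenitor markers these counts were 3 and 6, against 12.5% and 9.3% of all measured genes.

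Choroid plexus markers were at least 1.5-fold lower in H2AZcKO for 14 of 15 measured genes and higher for 1, with summed levels of 31.2 CPM in H2AZcKO and 849 in H2AZfl/fl and 12 and 6025 reads of Ttr, the transthyretin gene. Meningeal and fibroblast markers were lower for 14 of 19 and higher for 1, at 318 CPM in H2AZcKO and 713 in H2AZfl/fl, with 17 and 455 reads of the collagen gene Col1a1. Cldn2 and Calml4 of the choroid plexus list, and Slco1a4 of the vessel list, had 0 reads in the H2AZcKO library. Endothelial and pericyte markers were lower for 3 of 19 and higher for 0, at 526 CPM in H2AZcKO and 571 in H2AZfl/fl. Microglial and macrophage markers were lower for 3 of 13 and higher for 1, at 75.7 and 92.5 CPM in H2AZcKO and H2AZfl/fl. Astrocyte markers were lower for 3 of 13 and higher for 0, at 1080 and 1236 CPM, and oligodendrocyte markers were lower for 1 of 10 and higher for 3, at 129 and 109 CPM in H2AZcKO and H2AZfl/fl. Among all measured genes, 5.43% were that much lower and 3.52% that much higher. Of the genes counted in this paragraph, Prlr, Crabp2, Trem2 and Bcas1, counted as higher, and Foxd1, Lyz2 and Cd44, counted as lower, had intervals that included level.

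**Figure D5:**
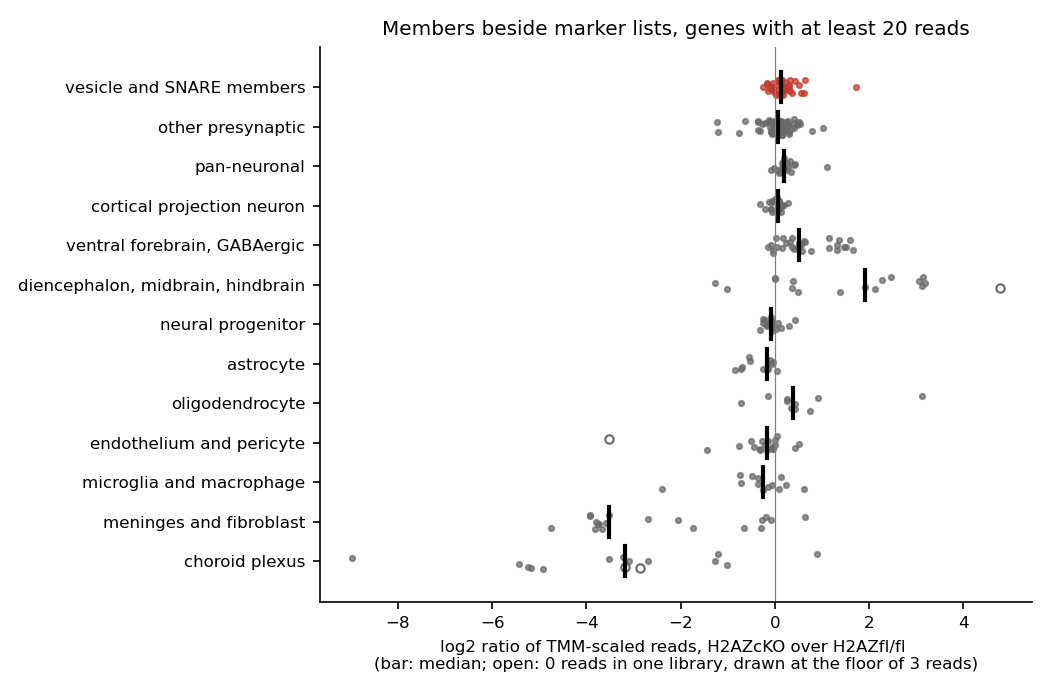
Log2 ratio of H2AZcKO over H2AZfl/fl for each measured gene (points), by list, with list medians as bars; open circles are genes with 0 reads in one library, drawn at a floor of 3 reads there. Except for Syt13 at 1.73, the members lie within the span of the other presynaptic genes. Some of them, down to Vamp3 at -0.25, lie below the lowest pan-neuronal gene, at -0.09. Ventral and diencephalic markers reach above the span of the other presynaptic genes, and choroid plexus and meningeal markers below it. Single genes of other lists also lie outside that span: Nefl (1.11) and Nkx2-2 (3.11) above it, and Mrc1 (-2.41), Anpep (-1.44) and Slco1a4 below it.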

How the data were processed

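RNA was measured in 1 H2AZcKO and 1 H2AZfl/fl sample, grouped by the genotype label. Per the labels' protocols, Trizol RNA was made into TruSeq libraries from 2 ug. Bowtie2 2.2.3, TopHat2 2.0.12 and HTSeq 0.6.0 are listed without roles, along with mm9, per the submitters' processing notes. Of 19616 gene positions compared with GENCODE M21 on GRCm38, 79.2% were identical and 99.8% overlapped the same gene, so coordinates are given as GRCm38. Gene symbols and exon lengths come from GENCODE M21.

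The deposited table holds raw read counts, per the file headers, with a gene at 0 reads in one library listed from 5 reads in the other. The authors' CPM columns were used only to check the ratio column: the deposited fold is the authors' control CPM over knockout CPM, and the authors' log2 values were taken from that fold, so a negative one means more reads in H2AZcKO. The deposited p-values come from a test the sources used here do not name.

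Counts were scaled by TMM (edgeR 4.0.16, R 4.3.3). With 1 library per genotype no p-value was computed. Intervals came from scipy 1.17.1 in Python 3.11.15, with pandas 2.3.3 and numpy 2.4.6 for tables and matplotlib 3.10.9 for figures, and the calculation was tested on simulated counts. CPM in the text was computed with TMM-scaled library totals. A library at 0 reads was set to a floor of 3 reads where drawn. Alternatives were other scalings (library totals, DESeq2 1.42.0 size factors, pan-neuronal reads), read minimums of 1 and 100, a prior of 5 reads and a 2-fold limit. Intervals and floors cover counting error only. The members, families, lists and the rule for named genes (all members, the furthest of each list) were chosen with earlier results of these data known. A gene that this rule would name among the other presynaptic genes is not reported here.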

Additional observations from a re-analysis of the deposited data

How the results depend on the processing

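Directions of some members rest on the reference chosen for scaling. Syt1, Syt6, Syt13, Sv2c, Rab3c, Rims1 and Rims2 were higher beyond counting error under every scaling used, and Vamp3 was lower. With pan-neuronal reads as the reference, which shifts all log2 ratios by -0.18, the median of the members was -0.042 and that of the other presynaptic genes -0.11, and 1 member, Syt13, was at least 1.5-fold higher. Summed log2 ratios were then -0.0064 for synaptotagmins, -0.11 for synapsins, -0.13 for vesicle membrane proteins, -0.086 for SNAREs, -0.14 for SNARE regulators, 0.038 for RAB3 and -0.054 for the active zone. Members higher beyond counting error under TMM that turned negative were Syt4 at -0.027, Syn1 at -0.065, Vamp2 at -0.038, Nsf at -0.0025, Bsn at -0.056 and Pclo at -0.0083. Library totals left 16 members higher and 2 lower beyond counting error, and DESeq2 size factors 21 and 1. The shares of all measured genes by these scalings were not computed. The median of the 3 RAB3 ratios was 0.31, above their summed ratio. At a 2-fold limit 1 member was higher, and the other presynaptic list had 1 higher and 2 lower. With at least 100 reads that list also had 1 and 2. Shares over all genes by these limits were not computed. Without the 7 members that share at least 5% of their exon bases with another gene, an alternative chosen after seeing the data, their median log2 ratio came to 0.12; the synaptotagmin sum without Syt13 and the RAB3 sum with Rab3d, also added then, were 0.15 and 0.18. The members' counts past 1.5-fold moved by at most 1.5 times, and their median log2 ratio stayed between 0.10 and 0.16, with library totals, DESeq2 size factors, other read minimums and a prior of 5 reads. Leaving out a replicate was not possible with 1 library per genotype. No paired analysis was possible because each genotype has 1 library. Depth limits Syt2, Syt10, Syt12, Syt17, Vamp1 and Sv2c most.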
